A study of Mus musculus with 16 samples.

Results

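The 41 genes described here encode proteins of the endoplasmic reticulum (ER) that fold, modify and release secreted and membrane proteins. They were chosen by gene symbol, all 41 were found among the 38355 genes with deposited values, and all 41 were among the 12507 genes tested. They comprise 9 chaperones and cochaperones, 2 lectin chaperones, 5 disulfide-forming enzymes, 6 genes of ER-associated degradation, 4 stress sensors and transcription factors, 7 genes of the translocation channel and translocon, 4 signal peptidase subunits and 4 oligosaccharyltransferase subunits. RNA-Seq was performed on splenic B-cells of C57BL/6 mice that were wild type (WT) or lacked miR-146a in the germline (Mir146a-/-, here KO), with 16 libraries in 8 groups of 2 biological replicates. Transitional T1 cells, transitional T2 cells, marginal zone (MZ) B-cells and follicular (FO) B-cells were sorted from spleens pooled from several mice, so a replicate is a pool and not an animal. The sources used here give no ages for these pools.

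A protein destined for secretion enters the ER through the Sec61 channel, where signal peptidase cuts off its signal peptide and oligosaccharyltransferase attaches glycans. Chaperones such as the Hsp70 protein BiP (encoded by Hspa5) and the Hsp90 protein Grp94 (Hsp90b1), the lectins calnexin and calreticulin, and protein disulfide isomerases then fold it, and ER-associated degradation removes what fails to fold. The sensors Ire1 (Ern1), Perk (Eif2ak3) and Atf6 detect unfolded protein and raise these genes through the factors Xbp1, Atf4 and cleaved Atf6. In B-cells this machinery is known for its expansion in antibody-secreting plasma cells, and MZ B-cells are known for rapid secretion of IgM after activation.

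Several libraries stood apart from the others, and this bears on the members. The summed RPKM (read counts scaled to gene length and library size) of 10 plasma cell genes, none of them a member, was 3018 in the WT and 4252 in the KO replicate 2 library of T1, against 667 and 1324 in the replicate 1 libraries and 78.3 to 277.6 in the other 12. Igj, the joining chain gene, made up most of this sum in each T1 library, so the sum there mainly reflects Igj. It was at 428 and 2799 RPKM in WT T1, at 1148 and 3876 RPKM in KO T1, and at 2.0 to 38.5 RPKM elsewhere. The lower plasma cell genes Sdc1, Tnfrsf17 and Prdm1 were also highest in the T1 replicate 2 libraries of both genotypes. Sdc1 was at 13.86 RPKM or more in them, against at most 6.58 RPKM elsewhere. For Tnfrsf17 these values were 14.29 and 3.95 RPKM, and for Prdm1 10.31 and 6.63 RPKM. The rest of the list, Irf4 and the IgG and IgA constant genes, did not share this pattern in WT. Its sum was lower in replicate 2 than in replicate 1 in WT T1, and higher in KO T1. Dividing cell genes were also highest in these replicate 2 libraries, with sums of 41.3 and 69.5 RPKM against 7.6 to 24.5 in the other 14. The 6 B-1 cell genes summed to 62.2 and 60.4 RPKM in them, against 13.4 to 36.2 in the other 14. A list of 12 immediate early and heat shock genes ranged within groups from 1827 to 4105 RPKM in WT T1 and from 139 to 1622 RPKM in KO MZ. The 7 B-cell genes summed to 4776 to 7538 RPKM with none at 0 in any library. The T cell list was at 1.3 to 17.5 RPKM, and the myeloid list was at 10.5 to 154.4 RPKM, highest in T2 and in KO T1 replicate 2. Both lists were higher in replicate 2 than in replicate 1 in every group. In T1 the T cell list went from 1.3 to 12.2 RPKM in WT and from 3.2 to 14.0 RPKM in KO. The myeloid list went from 15.3 to 38.2 RPKM in WT T1 and from 20.1 to 115.2 RPKM in KO T1. The targeted gene Mir146 had 1 read in each WT FO library and 0 in the others, so the KO labels cannot be checked from these libraries. In sorted bulk RNA, more cells of a type and more RNA per cell cannot be told apart.

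All members were expressed in every library, and 38 of 41 had a mean above 10 RPKM over the 16 libraries. The median of the member means was 37.1 RPKM, against 8.82 RPKM over all tested genes. Pdia4 had the highest mean, 231.1 RPKM, followed by Calr with 213.0 RPKM, Hspa5 with 191.2 RPKM and the stress factor Atf4 with 153.6 RPKM. Sec61g, the small subunit of the channel, had the lowest, 1.29 RPKM with a range of 0.908 to 1.83 RPKM and 27 reads in its thinnest library. Only uniquely aligned reads were counted, and whether Sec61g shares sequence with other copies was not tested. Ern1 at 4.11 RPKM and the degradation channel gene Derl2 at 9.07 RPKM were the other members below 10 RPKM. The ratio of the highest to the lowest library was 10.6 for Pdia4 and 9.99 for Dnajb9, 4.04 for Ern1, 4.03 for Creld2, and 1.41 for the translocon gene Ssr1, the steadiest member.

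**Figure D1:**
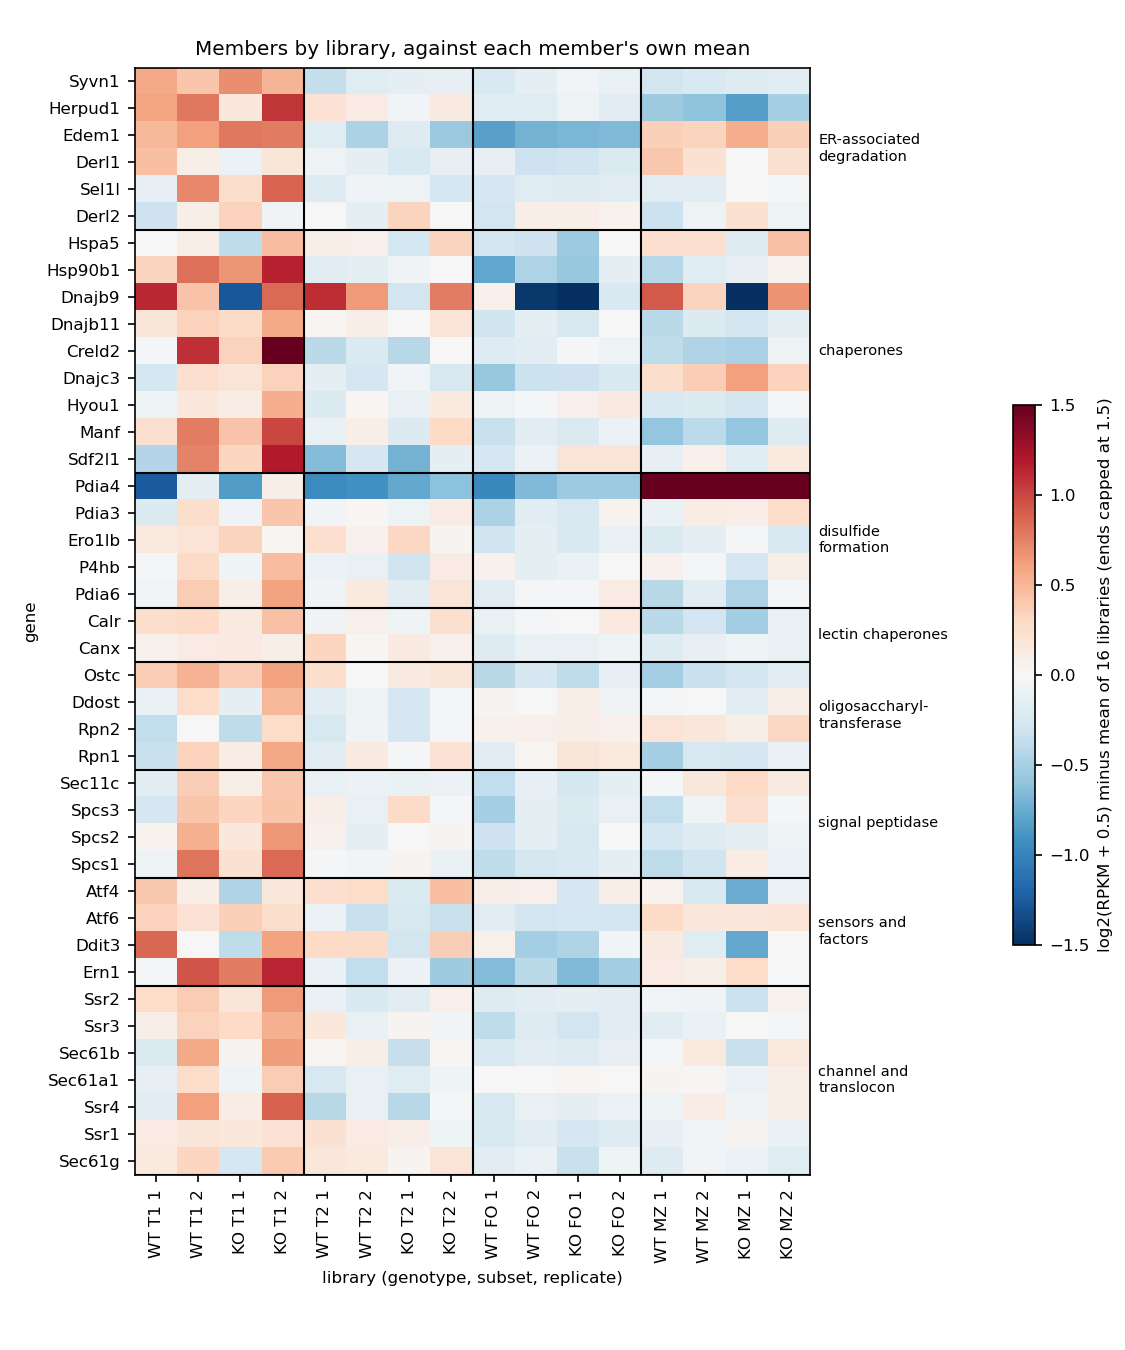
Heat map of the 41 members (rows, by role) in the 16 libraries (columns), as log2(RPKM + 0.5) minus the mean of that gene over the 16 libraries, with colours capped at 1.5 in either direction. Pdia4 was highest in the 4 MZ libraries, many members were highest in the T1 replicate 2 libraries, and Dnajb9 varied between replicates.

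Promoters of the members were read for the known ER stress elements, since these letters are shared by many ER chaperone genes. Promoter sequences of RefSeq on GRCm38.p6, running from 250 bases before to 50 bases after the start, were held for 32 of the 41 members, Ero1lb being matched under its newer symbol Ero1b. The ER stress response element (ERSE, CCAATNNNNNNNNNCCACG on either strand) was present in 9 of these 32 members and in 0.119% of all 32851 promoters. ERSE-II (ATTGGNCCACG on either strand) was present in Dnajb11 and Herpud1 and in 0.0365% of all promoters. The core of the unfolded protein response element (UPRE, TGACGTGG on either strand) was in no member and in 0.676% of all promoters. The 3 motifs share the letters CCACG, or CGTGG on the other strand, and a match is a description of the letters only. Members with ERSE were Hspa5, Hsp90b1 with 2 matches, Calr, Canx, Pdia6, Dnajc3, Creld2, Syvn1 and Ero1lb. The windows below are those of Hspa5 and of the members that changed between subsets, printed in the direction of the motif with its fixed letters in capitals.
Hspa5 (chr2:34772017-34772051, plus strand): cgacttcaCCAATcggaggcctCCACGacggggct
Hsp90b1 (chr10:86705630-86705664, minus strand): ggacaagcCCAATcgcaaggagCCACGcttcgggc
Hsp90b1 (chr10:86705525-86705559, plus strand): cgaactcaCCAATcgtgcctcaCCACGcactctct
Dnajc3 (chr14:118937819-118937853, plus strand): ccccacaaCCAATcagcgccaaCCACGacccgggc
Syvn1 (chr19:6046524-6046558, plus strand): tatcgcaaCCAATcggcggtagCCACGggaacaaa
Canx (chr11:50325792-50325826, minus strand): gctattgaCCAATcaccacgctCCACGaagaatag
Herpud1 (chr8:94386369-94386395, plus strand): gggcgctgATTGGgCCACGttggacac

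The first question was how the members differ between T2 cells and MZ B-cells, which derive from them. Among the members this step was led by Pdia4 (ENSMUSG00000025823, chr6:47796141-47813430, minus strand of GRCm38), a protein disulfide isomerase with several thioredoxin-like domains. In WT, Pdia4 was at 78.9 and 81.6 RPKM in T2 and at 582.6 and 627.0 RPKM in MZ. In KO it was at 90.4 and 100.1 RPKM in T2 and at 681.6 and 614.8 RPKM in MZ. T1 libraries held 64.5 and 138.6 RPKM in WT and 86.2 and 165.4 RPKM in KO, and FO libraries held 78.7 and 96.9 RPKM in WT and 105.6 and 105.4 RPKM in KO. The 4 MZ libraries were therefore all above the other 12, with no overlap.

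The log2 fold change of Pdia4, on the scale of log2(RPKM + 0.5), was 2.91 ± 0.33 (SE, adjusted p = 0.000117, limma) in WT and 2.76 ± 0.33 (adjusted p = 0.000177) in KO from T2 to MZ. Against FO cells the MZ level was higher by 2.78 ± 0.33 in WT (adjusted p = 0.00016) and by 2.61 ± 0.33 in KO (adjusted p = 0.000262). It ranked 78 of 12507 genes by log2 fold change from T2 to MZ in WT and 85 in KO. These calls were made without any 1 of the 16 libraries, at an adjusted p of at most 0.00419. In MZ libraries Pdia4 alone made up 22.7% to 27.97% of the summed RPKM of the 41 members, against 2.74% to 5.83% in the other subsets. The next highest member in each MZ library was Hspa5, at 163.4 to 255.0 RPKM. The sum of the other 40 members was 1894 and 1925 RPKM in WT MZ and 2055 and 2024 RPKM in WT T2. In KO it was 1756 and 2095 RPKM in MZ and 1868 and 2192 RPKM in T2.

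The Pdia4 promoter window of RefSeq, chr6:47813463-47813762 on the minus strand, held neither ERSE nor ERSE-II. It is printed because Pdia4 changed most, with each CCAAT or CCACG, on either strand, in capitals. It held 3 CCAAT pentamers and 1 CCACG pentamer, the latter after the start.
Pdia4: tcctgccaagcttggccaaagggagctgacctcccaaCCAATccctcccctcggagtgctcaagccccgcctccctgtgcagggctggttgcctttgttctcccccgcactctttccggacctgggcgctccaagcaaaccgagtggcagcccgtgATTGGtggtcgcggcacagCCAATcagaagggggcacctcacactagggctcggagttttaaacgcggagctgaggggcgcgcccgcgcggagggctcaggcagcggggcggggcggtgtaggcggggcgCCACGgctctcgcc

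**Figure D2:**
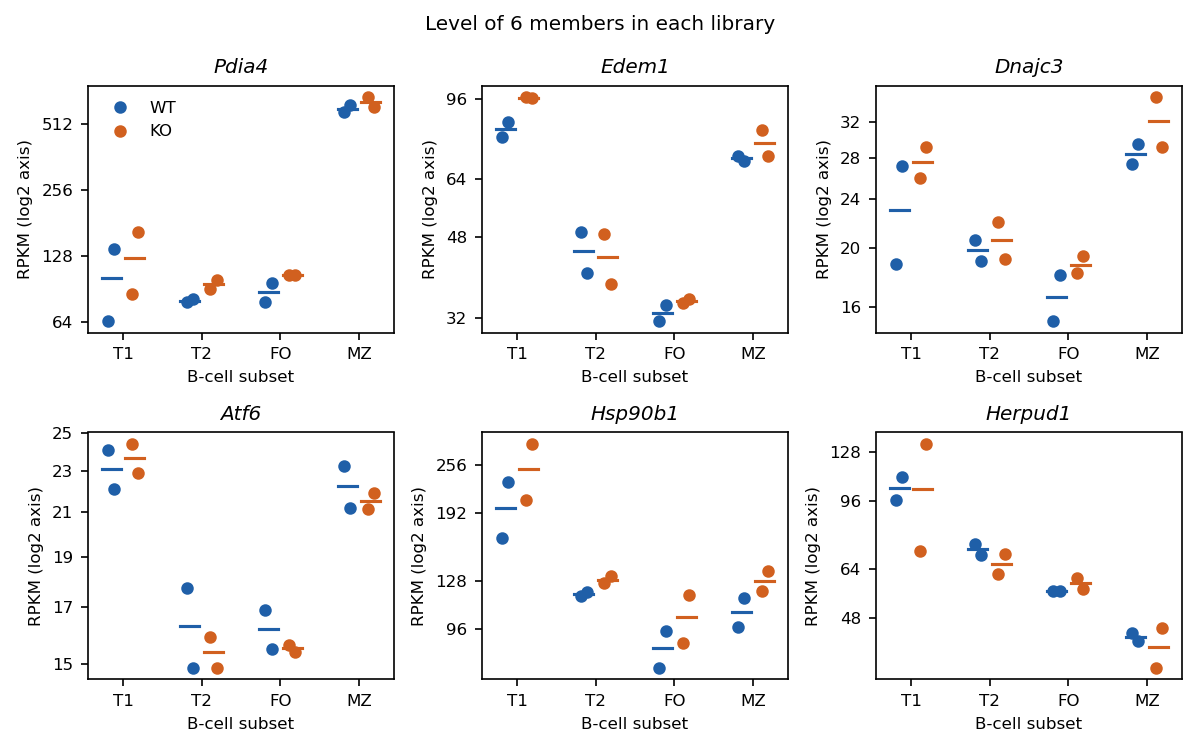
RPKM (log2 axis) of Pdia4, Edem1, Dnajc3, Atf6, Hsp90b1 and Herpud1 in each library by B-cell subset, with WT in blue and KO in orange, 2 points per group and a bar at their mean. Pdia4 stood at 582.6 to 681.6 RPKM in MZ and at most 165.4 RPKM elsewhere, Edem1 and Atf6 were high in T1 and MZ, and Herpud1 was lowest in MZ.

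From T2 to MZ, 9 of the 41 members (22%) were called in WT, 5 higher and 4 lower, where 29.3% of all tested genes were called, 16% higher and 13.3% lower. In KO 5 members (12.2%) were called, 4 higher and 1 lower, against 25.3% of all tested genes, 14.2% higher and 11.1% lower. Pdia4, Edem1, Dnajc3 and Atf6 rose and Herpud1 fell in both genotypes. The median log2 fold change of the members was -0.13 in WT and -0.02 in KO, against 0.01 and 0.03 over all tested genes, and 18 of 41 were above 0 in each genotype, against 50.7% and 52.2% of all tested genes. Under quantile normalization the median in KO was 0.09, with 23 of 41 above 0. With a change over 2-fold required in addition, Pdia4 alone was called in each genotype, against 10.8% of all tested genes in WT and 9.71% in KO. Without the T1 libraries, 11 members were called in WT and 6 in KO. Rpn2, an oligosaccharyltransferase subunit gene, was then called higher in both genotypes, as it was without the T1 replicate 2 libraries. With the replicate number as a block within each genotype, 14 members (34.1%) were called in WT and 11 (26.8%) in KO, against 35.8% and 31.4% of all tested genes. In WT the count was 3 and 5 without T2 replicate 1 or 2 of that genotype and 2 and 4 without its MZ replicate 1 or 2, while the KO count dropped to 3 if either T2 replicate 2 or MZ replicate 1 of KO was left out.

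Edem1 encodes a lectin-like protein that passes misfolded glycoproteins to degradation. It was at 49.3 and 39.9 RPKM in WT T2 and at 71.9 and 70.3 RPKM in WT MZ, and at 48.8 and 37.9 RPKM in KO T2 and 81.8 and 71.9 RPKM in KO MZ. The libraries of the subsets did not overlap, and the log2 fold change was 0.67 ± 0.13 in WT (adjusted p = 0.00307) and 0.83 ± 0.13 in KO (adjusted p = 0.000986). Its FO level was lower still, at 31.4 to 35.2 RPKM over the 4 libraries. MZ was above FO by a log2 difference of 1.11 ± 0.13 in WT and 1.13 ± 0.13 in KO, with adjusted p of 0.000144 and 0.00014. These Edem1 calls were made without any 1 library. Fitted on only the libraries of T2 and MZ, the adjusted p in KO was 0.0549. Its promoter window held neither ERSE nor ERSE-II.

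Dnajc3 encodes p58IPK, a cochaperone of BiP. It was at 20.6 and 19.04 RPKM in WT T2 and 27.4 and 29.5 RPKM in WT MZ, and at 22.0 and 19.1 RPKM in KO T2 and 35.1 and 29.1 RPKM in KO MZ. The log2 fold change was 0.51 ± 0.16 in WT (adjusted p = 0.0384) and 0.63 ± 0.16 in KO (adjusted p = 0.0175), with no overlap of libraries. Fitted by limma on only the libraries of T2 and MZ, Dnajc3 was called in WT (adjusted p = 0.0326) but not in KO (adjusted p = 0.0713). In WT the call was lost without any 1 of the WT T2 or WT MZ libraries or of the KO FO libraries, where the adjusted p reached 0.164. In KO it was lost without T2 replicate 2 or MZ replicate 1 of that genotype, with an adjusted p of up to 0.136. Against FO the log2 difference was 0.76 ± 0.16 in WT and 0.75 ± 0.16 in KO, with adjusted p of 0.00705 and 0.00757. These were lost, at adjusted p of up to 0.0725 and 0.08, without WT MZ replicate 2 or WT FO replicate 1, and without KO MZ replicate 1 or KO FO replicate 1.

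Atf6 encodes the membrane-bound sensor and factor whose targets include ER chaperones. It was at 17.7 and 14.9 RPKM in WT T2 and 23.3 and 21.2 RPKM in WT MZ, and at 15.9 and 14.9 RPKM in KO T2 and 21.1 and 21.9 RPKM in KO MZ. The change was small beside that of Pdia4, with a log2 fold change of 0.44 ± 0.10 in WT (adjusted p = 0.00744) and 0.47 ± 0.10 in KO (adjusted p = 0.00597). MZ exceeded FO by a log2 difference of 0.45 ± 0.10 in WT and 0.46 ± 0.10 in KO, at adjusted p of 0.00839 and 0.00741. The KO calls were made without any 1 library. Fitted on only the libraries of T2 and MZ, neither genotype was called, with adjusted p of 0.0814 in WT and 0.0558 in KO. Without WT MZ replicate 1 the adjusted p was up to 0.0698 against T2, and without that library or WT FO replicate 2 it was up to 0.0822 against FO.

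Herpud1, which recruits degradation components to the ER membrane, moved the other way. It was at 74.4 and 69.7 RPKM in WT T2 and 43.8 and 41.9 RPKM in WT MZ, and at 62.1 and 70.0 RPKM in KO T2 and 35.6 and 45.1 RPKM in KO MZ. MZ libraries were below all T2 libraries, with a log2 fold change of -0.74 ± 0.23 in WT (adjusted p = 0.0329) and -0.71 ± 0.23 in KO (adjusted p = 0.0439). Fitted by limma on only the libraries of T2 and MZ, Herpud1 was called in WT (adjusted p = 0.0121) but not in KO (adjusted p = 0.0659). Herpud1 overlaps Gm15890 on the opposite strand. The WT call was lost without any 1 WT T2 or WT MZ library. The KO call was lost without any 1 of 14 libraries, the exceptions being the KO T1 libraries, and its adjusted p then reached 0.246. Without the T1 replicate 2 libraries the adjusted p was 0.00147 in WT and 0.00205 in KO.

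The remaining calls of this step were made in WT only, and for none of them did the genotypes differ in this change by the test. Derl1, a channel component of ER-associated degradation, rose by a log2 fold change of 0.43 ± 0.14 (adjusted p = 0.0424), with 0.29 ± 0.14 in KO (adjusted p = 0.156). Ostc, an oligosaccharyltransferase subunit, fell by 0.55 on the log2 scale (SE 0.13, adjusted p = 0.0106), with -0.38 ± 0.13 in KO (adjusted p = 0.0605). Both were called in KO as well with the replicate block within each genotype, at adjusted p of 0.0307 for Derl1 and 0.0337 for Ostc. Calnexin (Canx) fell by 0.33 (SE 0.09, adjusted p = 0.0237) and Ssr1 fell by 0.26 (SE 0.09, adjusted p = 0.0499). Of the 16 fits that leave out 1 library, the call was lost in 10 for Derl1, in 12 for Ssr1, in 2 for Ostc (WT T2 replicate 1 and WT MZ replicate 1) and in 3 for Canx (those and WT MZ replicate 2). Derl1 was above FO in WT MZ by a log2 difference of 0.53 ± 0.14 (adjusted p = 0.0204), lost without WT MZ replicate 1 or WT FO replicate 2, where the adjusted p reached 0.144.

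Calreticulin, BiP and the other disulfide-forming enzymes were not called from T2 to MZ in the fit without a block. Calr had values of -0.35 ± 0.16 in WT (adjusted p = 0.118) and -0.41 ± 0.16 in KO (adjusted p = 0.0866) on the log2 scale. With the replicate block within each genotype Calr was called lower in both, at adjusted p of 0.0132 and 0.008, as were Manf, Dnajb11 and Atf4, and Pdia6 was called lower in WT (adjusted p = 0.0258). Calr was also called lower in KO without KO MZ replicate 2. Hspa5 had 0.17 ± 0.30 and 0.08 ± 0.30. The channel subunits Sec61a1, Sec61b and Sec61g were not called, nor were the 4 signal peptidase subunits in the fit of all libraries. Of the latter, Spcs1 was called lower in WT without the T1 libraries or the T1 replicate 2 libraries, and Sec11c was called higher in KO under quantile normalization. Of the members called at this step without a block, Dnajc3 and Canx held ERSE and Herpud1 held ERSE-II, and they did not move in the same direction.

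FO to MZ gave the same leading members. In WT 5 of 41 (12.2%) were called, all higher in MZ, where 21.3% of all tested genes were called and 11.4% were called higher. In KO 4 of 41 (9.76%) were called, all higher, against 22.6% of all tested genes and 12.1% called higher. Pdia4, Edem1, Dnajc3 and Atf6 were called in both genotypes. The count in KO was 7 without WT T1 replicate 1 or WT T1 replicate 2, when Ern1, Sec11c and Derl1 were added, and in WT it was 3 without WT MZ replicate 1 or WT FO replicate 2. With 2-fold in addition, Pdia4 and Edem1 were called in each genotype, against 8.59% of all tested genes in WT and 8.51% in KO. With the replicate block within each genotype 8 members (19.5%) were called in each, against 26.5% and 27.7% of all tested genes, and Hspa5 (higher) and Calr (lower) were added in both. In the 8 libraries of WT and KO T2 and FO no member was called between the subsets, where 0.24% of all tested genes were called in WT and 0% in KO. At an unadjusted p under 0.05, 7 members in WT and 4 in KO differed from T2 to FO (20.9% and 12% of all tested genes), and limma-voom on recovered reads gave 8 and 4 and also called none. Without WT T2 replicate 2, 1 member, Canx, was called in WT. The smallest p from T2 to FO was that of Ssr1 in WT, with a log2 fold change of -0.37 ± 0.09 and an adjusted p of 0.0884.

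**Figure D3:**
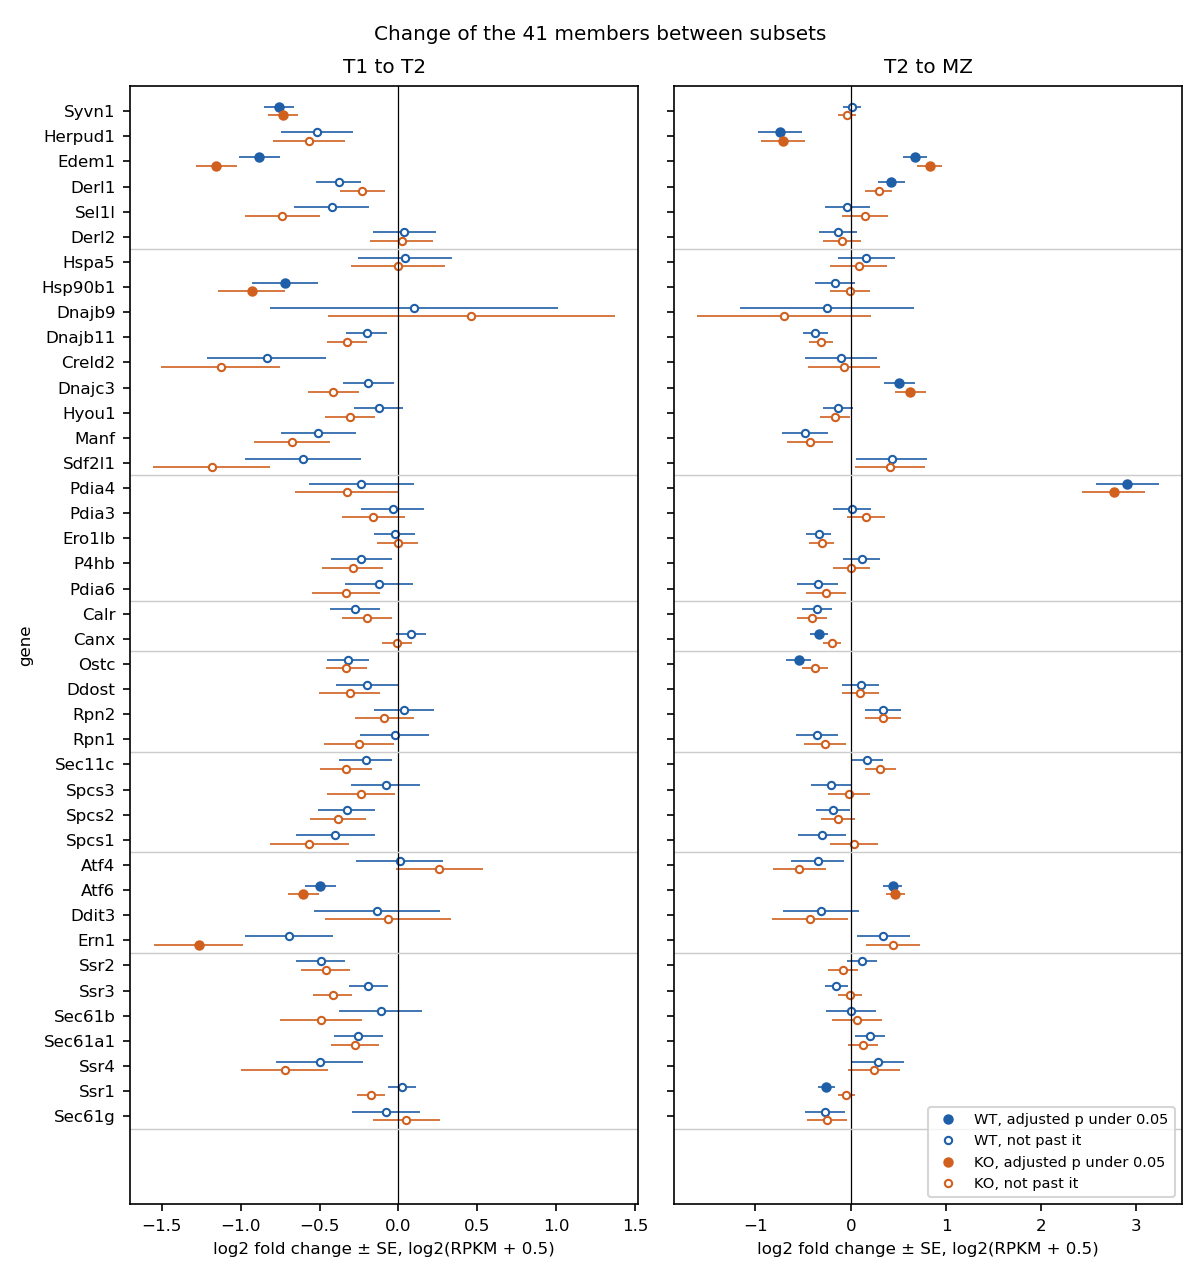
Log2 fold change (± SE) of the 41 members from T1 to T2 (left) and from T2 to MZ (right), grouped by role, with WT in blue and KO in orange and filled points for an adjusted p under 0.05. From T1 to T2 most points lie below 0, and from T2 to MZ Pdia4 stands apart at 2.91 and 2.76.

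From T1 to T2 every call among the members was toward lower levels. In WT 4 of 41 (9.76%) were called, all lower, where 11.8% of all tested genes were called and 4.85% were called lower. In KO 5 of 41 (12.2%) were called, all lower, against 11.8% of all tested genes and 4.78% called lower. The degradation genes Edem1 and Syvn1, the chaperone Hsp90b1 and the sensor Atf6 fell in both genotypes, and the sensor Ern1 passed the test in KO. Of the 41 members, 7 in WT and 4 in KO had a log2 fold change above 0, while 59% and 61.1% of all tested genes did. The median log2 fold change of the members was -0.21 in WT and -0.33 in KO, against 0.07 and 0.08 over all tested genes. Median-ratio scaling left 1 member in WT and 2 in KO above 0. With 2-fold in addition, none was called in WT, and Edem1 and Ern1 were called in KO, against 4.29% and 4.43% of all tested genes. With the replicate block within each genotype 7 members (17.1%) were called in WT and 11 (26.8%) in KO, all lower, against 16.6% and 16.1% of all tested genes. Fitted on only the libraries of T1 and T2, no member was called in either genotype, Edem1 having adjusted p of 0.147 and 0.142 and Syvn1 0.149 and 0.166 in WT and KO.

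Syvn1 encodes Hrd1, the ubiquitin ligase of ER-associated degradation. It was at 126.5 and 113.4 RPKM in WT T1 and at 66.5 and 75.2 RPKM in WT T2, and at 138.0 and 121.2 RPKM in KO T1 and 76.7 and 78.4 RPKM in KO T2. T1 libraries were all above the other 12, since FO and MZ libraries held 70.1 to 83.0 RPKM. The log2 fold change was -0.76 ± 0.09 in WT (adjusted p = 0.00111) and -0.73 ± 0.09 in KO (adjusted p = 0.00105), and without the T1 replicate 2 libraries it was -0.83 in each genotype. Syvn1 overlaps Mrpl49 on the opposite strand, and the library kit does not mark strand.

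Edem1 was at 79.0 and 85.5 RPKM in WT T1 and at 96.6 and 96.1 RPKM in KO T1, so that T1 and MZ were its high subsets. Its log2 fold change from T1 to T2 was -0.88 ± 0.13 in WT (adjusted p = 0.00237) and -1.16 ± 0.13 in KO (adjusted p = 0.000527). Without the T1 replicate 2 libraries these were -0.83 (adjusted p = 0.0166) and -1.16 (adjusted p = 0.00365). Atf6 was at 24.1 and 22.1 RPKM in WT T1 and 24.4 and 22.9 RPKM in KO T1, and the log2 fold change was -0.49 ± 0.10 in WT (adjusted p = 0.0106) and -0.60 ± 0.10 in KO (adjusted p = 0.00368). The Atf6 call in WT was lost without WT T1 replicate 1 or WT T2 replicate 2, where the adjusted p reached 0.0664, and both calls were also made without the T1 replicate 2 libraries, at adjusted p of 0.0217 and 0.0111. The T1 replicate 1 libraries that remain in that fit also had higher plasma cell sums, at 667 and 1324 RPKM, than the other subsets. Igj alone held 428 and 1148 RPKM of these. Prdm1, of the same list, was at 2.4 RPKM in both and higher in MZ, at 4.1 to 6.6 RPKM. Tnfrsf17 was at 1.4 and 4.0 RPKM in them, against at most 0.72 RPKM in the other subsets. The part of plasma cell transcripts in these calls was not tested.

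Hsp90b1, which encodes Grp94, behaved differently between the T1 replicates. It was at 165.2 and 231.8 RPKM in WT T1 and 208.2 and 291.8 RPKM in KO T1, against 117.2 and 119.7 RPKM in WT T2 and 126.6 and 131.4 RPKM in KO T2. The log2 fold change was -0.72 ± 0.21 in WT (adjusted p = 0.0493) and -0.93 ± 0.21 in KO (adjusted p = 0.0172). Without the T1 replicate 2 libraries it was -0.48 (adjusted p = 0.148) and -0.69 (adjusted p = 0.0524), and neither was called. Hsp90b1 overlaps 1810014B01Rik on the opposite strand. The WT call was also lost without any 1 of 13 libraries, and the KO call without KO T1 replicate 2 or either KO T2 library. Ern1 was at 3.7 and 7.7 RPKM in WT T1 and 6.8 and 8.9 RPKM in KO T1, against 3.5 and 2.8 RPKM in WT T2 and 3.5 and 2.5 RPKM in KO T2. In KO the log2 fold change was -1.27 ± 0.28 (adjusted p = 0.0158), lost without KO T1 replicate 2 or KO T2 replicate 2 at an adjusted p of up to 0.13. In WT it was -0.70 ± 0.28 (adjusted p = 0.139), and without WT T1 replicate 1 it was -1.18 (adjusted p = 0.0198). The number of members called in KO was 3 without KO T1 replicate 2 or KO T2 replicate 2, 9 without either WT T1 library and 11 without KO T1 replicate 1. The number called in WT was 2 without WT T2 replicate 2.

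Most members were higher in the T1 replicate that was high in plasma cell, dividing cell and B-1 cell genes. Of the 41, 31 (75.6%) were higher in replicate 2 than in replicate 1 in both genotypes, against 27.2% of all tested genes. The median difference of replicate 2 minus replicate 1 was 0.36 in WT and 0.47 in KO on the log2 scale, against 0.01 and -0.05 over all tested genes. Creld2, grouped here with the chaperones, was at 22.6 and 49.9 RPKM in WT T1 and at 29.5 and 66.1 RPKM in KO T1. All other libraries held 16.4 to 23.2 RPKM. Sdf2l1, a cofactor of BiP, was at 11.4 and 26.4 RPKM in WT T1 and 19.6 and 36.4 RPKM in KO T1, against 9.3 to 17.9 RPKM elsewhere. The largest T1 values of both genes were in the libraries with most Igj. From T1 to T2 neither was called in the fit without a block, with log2 fold changes of -0.84 ± 0.38 and -1.13 ± 0.38 for Creld2 and -0.61 ± 0.37 and -1.19 ± 0.37 for Sdf2l1 in WT and KO. In KO both were called lower with the replicate block within that genotype, at adjusted p of 0.0382 for Creld2 and 0.0157 for Sdf2l1, and also without KO T1 replicate 1 or either WT T1 library. The part of plasma cell, dividing cell, B-1 cell, T cell or myeloid transcripts in these levels was not tested.

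**Figure D4:**
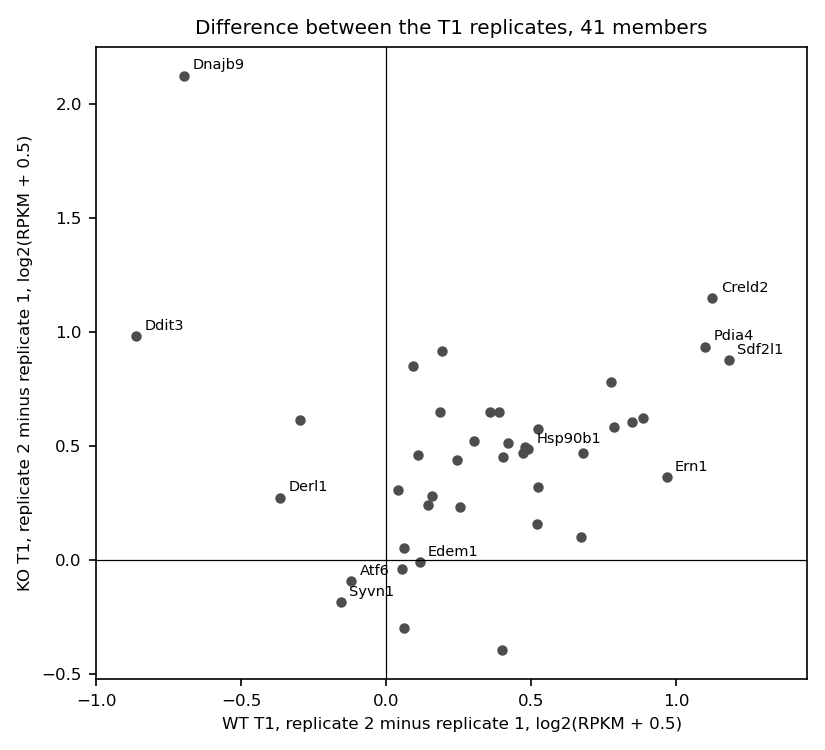
Difference between the T1 replicates (replicate 2 minus replicate 1, log2(RPKM + 0.5)) in WT (x axis) and KO (y axis), 1 point for each of the 41 members. Above 0 on both axes lie 31 members, while Syvn1 and Atf6 lie below 0 on both axes and Dnajb9, Ddit3 and Derl1 are on opposite sides in WT and KO.

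Dnajb9 varied within every group of replicates, and some other members shared the direction of its differences in most groups. Dnajb9, a cochaperone of BiP that also acts on Ire1, was at 100.95 and 62.1 RPKM in WT T1, 99.8 and 72.03 RPKM in WT T2, 87.6 and 58.0 RPKM in WT MZ and 48.4 and 16.6 RPKM in WT FO. In KO it was at 18.7 and 83.3 RPKM in T1, 38.0 and 78.7 RPKM in T2, 15.1 and 73.5 RPKM in MZ and 10.1 and 39.0 RPKM in FO. In all 8 groups the replicate with the higher sum of immediate early and heat shock genes also had the higher Dnajb9. The same was seen in 8 groups for the stress factor Ddit3 (Chop) and for Derl1, and in 7 groups for Atf4, Hspa5 and P4hb. Only the direction was counted, and some differences were small, as for Derl1 in WT T2 (35.5 and 37.2 RPKM). Over the members, 3 of 41 (7.32%) followed these genes in 8 of 8 groups, against 1.68% of all tested genes. The sum of these genes was higher in replicate 1 in every WT group and in replicate 2 in every KO group. Following it in 8 groups therefore means being higher in WT replicate 1 and in KO replicate 2. Anything else shared by libraries of 1 replicate number within a genotype cannot be told apart from it. The SE of a log2 difference was 0.91 for Dnajb9 and 0.40 for Ddit3, against 0.13 for Edem1, and neither Dnajb9 nor Ddit3 was called in any comparison without a block. Dnajb9 was called higher in MZ than FO in WT with the replicate block within each genotype (log2 difference 1.31, adjusted p = 0.0118). The part of this response in the members' levels was not tested.

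**Figure D5:**
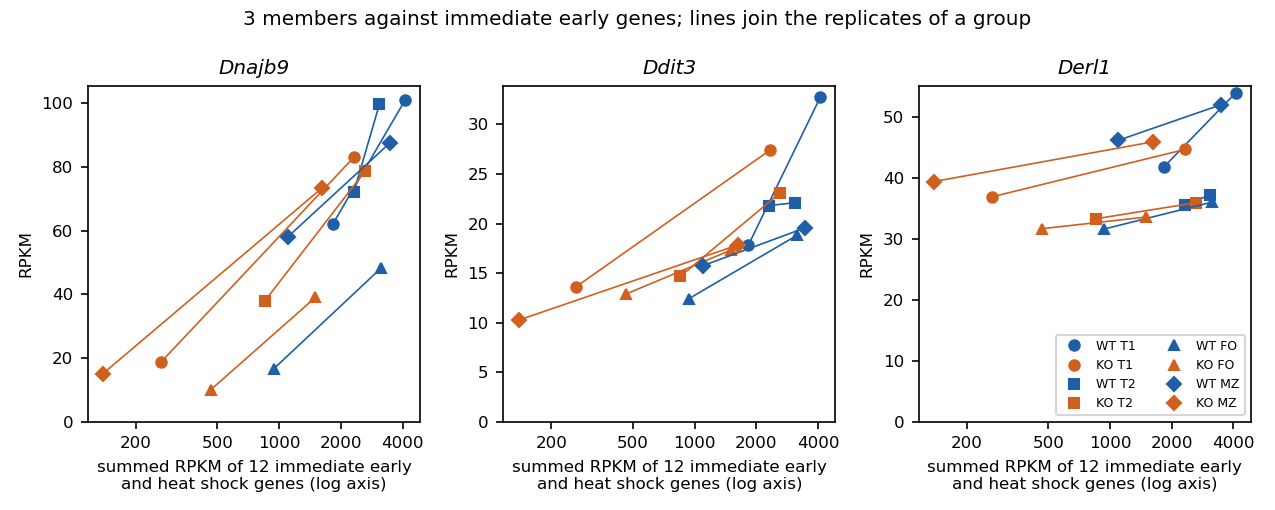
RPKM of Dnajb9, Ddit3 and Derl1 against the summed RPKM of 12 immediate early and heat shock genes (log axis) in the 16 libraries, with WT in blue, KO in orange, a marker for each subset and a line joining the replicates of a group. Each of the 24 lines slopes upward because the 3 genes drawn are those that followed this sum in all 8 groups.

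Loss of miR-146a was compared within each subset. The KO mice lack the mature miRNA printed here with its seed (bases 2 to 8) in capitals, from RefSeq at chr11:43374435-43374456 on the minus strand of GRCm38.p6.
mmu-miR-146a-5p: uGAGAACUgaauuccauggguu

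None of the 41 members was called between KO and WT in T1, T2, MZ or FO by limma or by limma-voom, and none had an unadjusted p under 0.05 by either tool. Over all tested genes 0.04%, 0.048%, 0.064% and 0.04% were called in T1, T2, MZ and FO, and 3.51%, 3.37%, 1.65% and 0.919% had an unadjusted p under 0.05. Pdia4 in MZ differed by 0.10 on the log2 scale, with a 95% interval of -0.63 to 0.83. Edem1 in MZ differed by 0.11 (-0.18 to 0.40), Dnajc3 by 0.17 (-0.19 to 0.53) and Atf6 by -0.05 (-0.27 to 0.17). The interval for Dnajb9 in MZ ran from -3.09 to 0.94, so only very large differences could have been seen for it. When the T2 to MZ change itself was compared between KO and WT, no member was called and none had an unadjusted p under 0.05, against 0.008% and 1.66% of all tested genes. For Pdia4 that difference was -0.15 (-1.18 to 0.89). In T1, 35 of 41 members were above 0 in KO against WT with a median of 0.14, while 50.5% of all tested genes were above 0, with a median of 0.00. In T2, MZ and FO, 24, 28 and 31 of 41 members were above 0. Their medians were 0.01, 0.05 and 0.06, against 0.01, 0.03 and 0.02 over all tested genes. Igj was at 428 and 2799 RPKM in WT T1 and at 1148 and 3876 RPKM in KO T1, so the genotypes overlapped. The part of plasma cell transcripts in the T1 difference was not tested.

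Other genes of the pathway were followed on 6 lists with 90 genes, of which 83 were tested. From T2 to MZ, 7 rose and 15 fell in WT (26.5% called, against 29.3% of all tested genes) and 3 rose and 9 fell in KO (14.5% against 25.3%). From T1 to T2, 4 rose and 9 fell in WT and 2 rose and 11 fell in KO, which is 13 of 83 in each genotype, against 11.8% of all tested genes. No list had a gene called from T2 to FO, where 17 of the 83 in WT and 4 in KO had an unadjusted p under 0.05, against 20.9% and 12% of all tested genes.

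Among sensors, factors and stress targets, Xbp1 was at 43.6 and 111.2 RPKM in WT T1 and 65.8 and 133.5 RPKM in KO T1, and at 25.8 to 38.5 RPKM in the 12 others. From T1 to T2 its log2 fold change was -1.12 ± 0.39 in WT (adjusted p = 0.0915) and -1.52 ± 0.39 in KO (adjusted p = 0.0309), and from T2 to MZ it was 0.07 ± 0.39 and 0.19 ± 0.39. Spliced Xbp1 mRNA cannot be told apart in values per gene. The stress-induced sestrin gene Sesn2 rose from T2 to MZ by 1.76 ± 0.28 in WT (adjusted p = 0.00105) and 1.36 ± 0.28 in KO (adjusted p = 0.00548). Eif2ak3, which encodes Perk, fell with a log2 fold change of -0.47 in WT (adjusted p = 0.0224) and -0.44 in KO (adjusted p = 0.0338), so that the sensors Atf6 and Eif2ak3 moved in opposite directions. Asns, an amino acid synthesis gene, was under 1 RPKM in T2 and MZ and was not called between them, with adjusted p of 0.146 and 0.091, and Eif2s1, the factor that Perk phosphorylates, fell in WT (adjusted p = 0.0492).

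Folding and disulfide factors changed in both directions. Mzb1, an ER cofactor of Grp94 in IgM assembly, was at 120.4 and 131.5 RPKM in WT T2 and 403.9 and 431.3 RPKM in WT MZ, and at 113.1 and 147.8 RPKM in KO T2 and 405.5 and 448.7 RPKM in KO MZ. Its log2 fold change was 1.73 ± 0.44 in WT (adjusted p = 0.0135) and 1.72 ± 0.44 in KO (adjusted p = 0.0153). Sil1, the exchange factor of BiP, rose by 0.84 ± 0.21 in WT (adjusted p = 0.0125) and 0.97 ± 0.21 in KO (adjusted p = 0.00657). Txndc5, another disulfide isomerase, was at 70.1 and 74.4 RPKM in WT T2 and 20.1 and 23.9 RPKM in WT MZ, and at 78.2 and 69.4 RPKM in KO T2 and 23.1 and 26.1 RPKM in KO MZ. It fell, with a log2 fold change of -1.70 in WT (adjusted p = 0.00338) and -1.57 in KO (adjusted p = 0.00609), so Pdia4 and Txndc5 moved in opposite directions. Fkbp11, a prolyl isomerase, fell, with -1.59 in WT (adjusted p = 0.0421) and -1.57 in KO (adjusted p = 0.0491), at 0.5 to 1.3 RPKM in MZ.

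In signal recognition and translocation, Tram2 fell from T2 to MZ, with a log2 fold change of -0.89 in WT (adjusted p = 0.00448) and -0.65 in KO (adjusted p = 0.0259). Srp14, a subunit of the signal recognition particle, fell, with -0.54 (adjusted p = 0.00434) and -0.42 (adjusted p = 0.0175). The highest of this list, Sec61a2 and the receptor gene Srpr, were not called, with 0.26 ± 0.21 and 0.35 ± 0.21 for Sec61a2. For glycosylation, Prkcsh, the regulatory subunit of glucosidase II, rose in WT by 0.51 ± 0.15 (adjusted p = 0.0309) and had 0.41 ± 0.15 in KO (adjusted p = 0.079). Krtcap2, an oligosaccharyltransferase subunit like Ostc, fell, with -0.61 (adjusted p = 0.0209) and -0.76 (adjusted p = 0.0078). Stt3b and Magt1, which also encode oligosaccharyltransferase subunits, were not called at this step.

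Degradation genes outside the members included Derl3, a paralog of Derl1, which rose from T2 to MZ in WT by 1.72 ± 0.57 (adjusted p = 0.0432) with 1.58 ± 0.57 in KO (adjusted p = 0.0654). From T1 to T2 it fell, with -2.65 in WT (adjusted p = 0.0141) and -3.18 in KO (adjusted p = 0.00576), from 11.5 and 41.3 RPKM in WT T1 and 19.7 and 59.1 RPKM in KO T1. Edem3 fell in WT by 0.67 from T2 to MZ (adjusted p = 0.0393) with -0.50 ± 0.22 in KO (adjusted p = 0.12), opposite in direction to its paralog Edem1, and Edem2 and Vimp were not called. Of the coat proteins of vesicles leaving the ER, Sec24d fell in WT by 1.06 (adjusted p = 0.0272) with -0.79 ± 0.31 in KO (adjusted p = 0.0901), and Sec23a fell in WT by 0.44 (adjusted p = 0.0209) with -0.21 ± 0.12 in KO (adjusted p = 0.246). The cargo receptor genes Lman1 and Mcfd2 were not called, with log2 fold changes of 0.32 ± 0.25 and 0.26 ± 0.14 in WT.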

How the data were processed

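Libraries were prepared with a TruSeq kit that does not mark strand and read as 100 bp single-end sequences. The authors aligned them to mm10 with TopHat, allowing 2 mismatches, and deposited RPKM per gene, computed from uniquely aligned reads. The sources used here name no tool versions. The deposited RPKM were used as they are. Their steps gave whole reads within 0.01 reads at the annotated gene length for 13395 genes (24 members). For the other 9799 genes above 0 (17 members) the length was searched until the reads were whole, so that their agreement is fixed by the search. Library totals were 9003343 to 26386684 reads. RPKM carry no counting interval of their own.

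Values were compared as log2(RPKM + 0.5) by limma 3.58.1 (R 4.3.3), with a model of 8 groups and a variance trend, over the 12507 genes with a group mean above 1 RPKM. Fold changes on this scale understate changes of low genes. P-values were adjusted by Benjamini-Hochberg over all tested genes in each comparison, and a gene was called, higher (rose) or lower (fell), at an adjusted p under 0.05. P-values measure the spread between pools of spleens. Comparisons sharing a subset share its libraries. Pooled spleens were sorted into all subsets, and the sources used here do not say whether a replicate number marks 1 pool across subsets. Limma-voom on the recovered reads called 3571 genes from T2 to MZ in WT and 3121 in KO, against 3663 and 3162 here.

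Members and lists were chosen with earlier results of these data known. All 41 members are accounted for. From each pathway list the 2 highest and 2 lowest genes by mean T2 to MZ change over both genotypes were named, and Xbp1. Promoters and the miRNA came from RefSeq (GRCm38.p6), and gene positions from GENCODE M21 (GRCm38). No promoter was held for Manf, Hyou1, Derl1, Atf6, Sec61a1, Sec11c, Spcs3, Ssr2 and Ostc. Python 3.11.15 was used with pandas 2.3.3 and numpy 2.4.6.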

Additional observations from a re-analysis of the deposited data

How the results depend on the processing

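Alternatives were pseudocounts of 0.1 and 1, no filter, quantile normalization, median-ratio scaling, a replicate block, fitting only the groups compared, 2-fold in addition, limma-voom on recovered reads and leaving out each library. Leaving out the T1 libraries or the T1 replicate 2 libraries, and the replicate block within each genotype, were chosen after seeing the data. No named log2 fold change that was called turned direction under any of these.

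Counts of members called that moved by over 1.5 times were as follows. With only the groups compared they were 0 from T1 to T2 in WT and 0 in KO, 5 from T2 to MZ in WT and 1 in KO, and 8 from FO to MZ in WT, with fewer samples to set the spread. With 2-fold in addition they were 0 and 2 from T1 to T2, 1 and 1 from T2 to MZ and 2 and 2 from FO to MZ in WT and KO. With the replicate block they were 10 from T1 to T2 in KO and 9 from T2 to MZ in KO; the counts 6 and 12 in WT stayed within that range. With the replicate block within each genotype they were 7 and 11 from T1 to T2, 14 and 11 from T2 to MZ and 8 and 8 from FO to MZ in WT and KO, and 0 from T2 to FO in both. That block was not applied to KO against WT within a subset, since pools differ between genotypes. Without the T1 libraries, or the T1 replicate 2 libraries, 8 were called from FO to MZ in KO. Leaving out 1 library gave 2 to 6 and 3 to 11 from T1 to T2, 2 to 9 and 3 to 5 from T2 to MZ, 3 to 6 and 3 to 7 from FO to MZ in WT and KO, and 0 to 1 from T2 to FO in WT. The cause was not tested. Counts for KO against WT stayed at 0 under every alternative applied to them.

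Whether replicates sharing a number come from 1 pool of spleens is not stated; between genotypes they cannot. Correlations of their deviations were 0.076 to 0.453 within WT, 0.19 to 0.445 within KO and -0.361 to 0.3 between genotypes, so the pairing rests on a hint from the data, over 0.1 for all pairs in KO but not in WT. Leaving an arm with 1 library assumes that it varies like the other groups. With 2 libraries per group the intervals are wide, and smaller differences were not detectable.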
